A study of Mus musculus with 9 samples.

Results

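Malat1, Neat1, Kcnq1ot1, H19, Gas5, Snhg1, Snhg8 and Snhg12 are noncoding RNAs that either stay in the nucleus or carry small nucleolar RNAs (snoRNAs) in their introns. They were picked by gene name from the 32137 genes in the count files; 8 of 8 names were found, and 7 of the 8 passed the filter on low counts that left 17011 genes for testing. H19 did not pass. The 9 libraries came from sorted cells of differentiated bile duct organoids, cultured duct epithelium grown in matrix, all derived from 1 male mouse of mixed background with the genotype Axin2CreERT2+/-; R26-LSL-tdTom+/-. In these cells tamoxifen-activated Cre is made where the Wnt target Axin2 is expressed and switches on the red reporter tdTomato. Organoids of all groups were expanded for 2 to 4 days, differentiated for 11 days, and given 3 uM dexamethasone and 500 nM 4-hydroxytamoxifen for the last 24 h, with or without 100 ng/ml Rspo1, a secreted protein that strengthens Wnt signalling. The groups were tdTomato-negative cells without Rspo1 (untreated), tdTomato-negative cells with Rspo1 (Rspo1-negative) and tdTomato-positive cells with Rspo1 (Rspo1-positive), each with 3 libraries, taken at passages 5, 6 and 10. Because 1 animal gave every library, p-values measure the spread between cultures and not between animals. No tdTomato-positive cells without Rspo1 were analysed here, so Rspo1 and the sorting gate cannot be told apart where Rspo1-positive libraries are set against untreated ones. The labels name 2 collection fluids, expansion medium and Trizol, and do not assign them to libraries.

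Malat1 is an abundant, unspliced nuclear RNA that gathers at nuclear speckles, where splicing factors are stored. Neat1, its neighbour on the chromosome, is the scaffold on which the RNA-binding proteins of paraspeckles assemble. Kcnq1ot1 and H19 are imprinted RNAs of neighbouring domains: Kcnq1ot1 is transcribed from the paternal allele against the direction of Kcnq1 and silences genes around it, and H19 is transcribed from the maternal allele next to Igf2 and is abundant in fetal liver. Gas5, Snhg1, Snhg8 and Snhg12 are snoRNA hosts: their introns release the snoRNAs that guide ribosomal RNA modification, and the spliced remainder is often removed by nonsense-mediated decay, a pathway that degrades translated RNAs with an early stop.

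The start regions of the 4 snoRNA hosts are shown because such hosts are known for transcripts that begin with a run of pyrimidines (C or T), a feature called a terminal oligopyrimidine tract. The windows are from RefSeq on GRCm38.p6, which matched 6 of the 8 names (not Neat1 or H19), and cover positions -60 to 39 with the annotated start as position 0. Capitals mark TATA between positions -45 and -16 and the longest pyrimidine run of at least 6 bases between positions -15 and 14. TATA reads the same on both strands, and the run was read on the transcript's strand; the search regions do not overlap. For Gas5 the second of the start sites in that table is shown.
Gas5, chr1:161035106-161035205, plus strand: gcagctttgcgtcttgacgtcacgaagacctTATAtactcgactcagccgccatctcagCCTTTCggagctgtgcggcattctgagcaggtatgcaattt
Snhg1, chr19:8723427-8723526, plus strand: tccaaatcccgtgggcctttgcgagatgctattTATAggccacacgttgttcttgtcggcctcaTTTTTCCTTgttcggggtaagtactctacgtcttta
Snhg8, chr3:123508297-123508396, minus strand: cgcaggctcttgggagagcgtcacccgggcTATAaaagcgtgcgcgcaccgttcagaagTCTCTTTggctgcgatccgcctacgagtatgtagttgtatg
Snhg12, chr4:132308618-132308717, plus strand: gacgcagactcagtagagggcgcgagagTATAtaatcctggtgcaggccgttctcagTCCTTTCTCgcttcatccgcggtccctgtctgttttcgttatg
TATA began at positions -29, -27, -30 and -32 in Gas5, Snhg1, Snhg8 and Snhg12. The pyrimidine runs were 6, 9, 7 and 9 bases long in the same order, and began at positions -1, 4, -1 and -3. Among all 32851 windows of the table, 6.72% held TATA in that region, 29.2% held such a run, and 2.11% held both. The windows of Malat1 and Kcnq1ot1, and the first Gas5 window, held neither. That all 4 windows shown held both therefore depends on which Gas5 window is shown.

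Total counts per library ranged from 23423979 to 37351448, with 22021 to 24578 genes counted. All 6 biliary markers were present, with a summed level of 5675 to 8698 CPM (counts scaled to library size, with TMM factors). The hepatocyte markers summed to 163.9 to 544.7 CPM, the immune markers to 5.457 to 23.21 CPM, and the mesenchymal and endothelial markers to at most 1.007 and 0.8115 CPM. Only 3 of the 6 hepatocyte markers, and 1 of the 4 immune markers in the count files, exceeded 1 CPM in any library. Counts on 3 annotated genes of the ribosomal RNA repeat on chromosome 17 made up 0.499% to 20.9% of a library's counts. The Rspo1-negative libraries stood apart by sequence composition: against untreated libraries, the log2 fold change of 17001 genes increased with GC content (Spearman rho across genes 0.496) and decreased with summed exon length (-0.276), whereas for Rspo1-positive against untreated libraries these values were -0.0134 and 0.0241. This trend was also used as an offset in the fit. In bulk samples, fewer cells of a type and less RNA per cell cannot be told apart.

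Compared per length, Malat1 and Gas5 were the most abundant of the 8, with means over the 9 libraries of 70.0 and 55.1 FPKM (read counts scaled to transcript length and library size). Snhg8 followed at 20.5 FPKM, then Neat1 at 11.9, Snhg1 at 11.3 and Snhg12 at 11.3 FPKM, Kcnq1ot1 at 0.400 FPKM and H19 at 0.0035 FPKM. The ranges of Malat1 (27.6 to 98.9 FPKM) and Gas5 (44.6 to 76.2 FPKM) overlapped, as did those of Snhg8 (15.9 to 28.2), Neat1 (1.31 to 21.01), Snhg1 (6.59 to 17.5) and Snhg12 (6.51 to 16.2 FPKM). Gas5 lay above Snhg8 in every library, and all of these lay above Kcnq1ot1 (0.225 to 0.597 FPKM). In untreated cells Malat1 was above Gas5, at 95.6 ± 2.93 against 52.2 ± 6.84 FPKM (SD, n = 3), but in Rspo1-negative cells it was at 54.7 ± 33.7 against 48.5 ± 4.58 FPKM (SD, n = 3). These FPKM divide by the longest transcript, which for the snoRNA hosts is shorter than the summed exons. The gap was widest for Gas5 (2556 against 3760 bases) and Snhg12 (1538 against 2402 bases). For Malat1, Neat1 and Kcnq1ot1 both lengths are equal, so hosts and these RNAs were not scaled on the same basis.

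**Figure D1:**
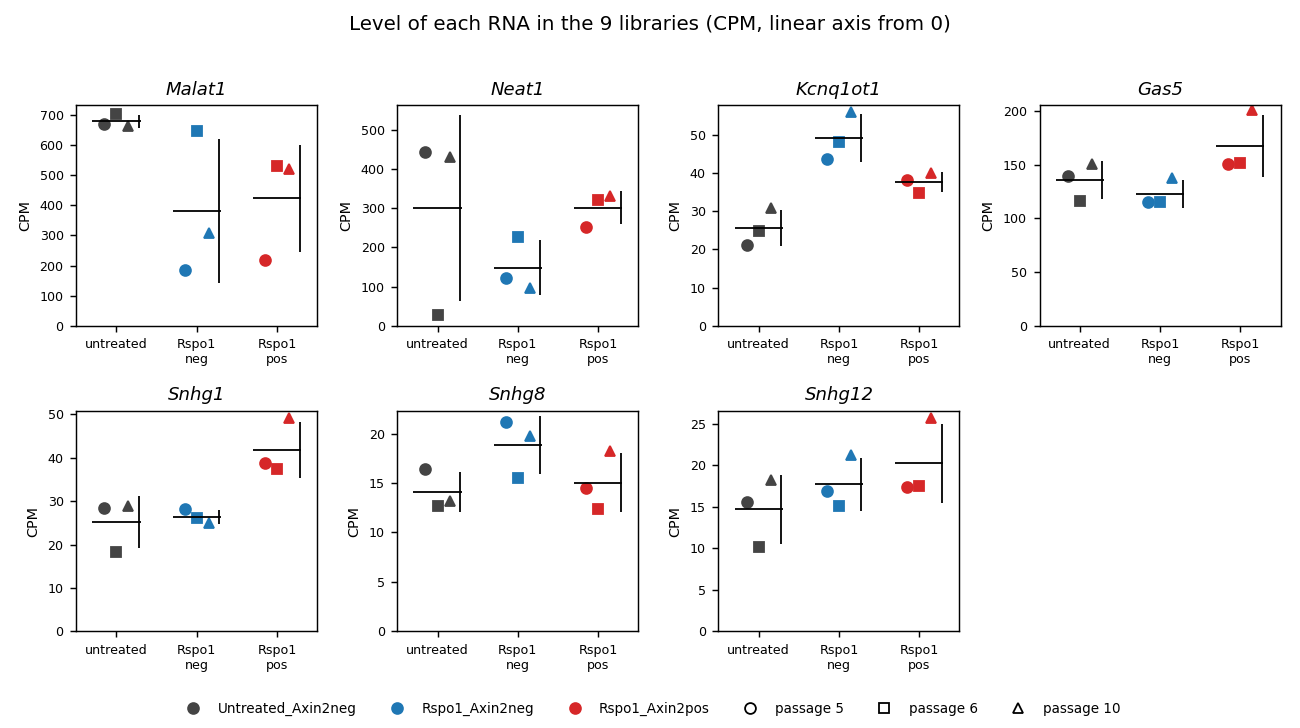
Level of the 7 tested RNAs in each library, in CPM on linear axes from 0; points are libraries (shape gives the passage), horizontal lines are group means and vertical lines the SD over 3 libraries. Malat1 lay between 664 and 703 CPM in the untreated libraries and between 186 and 646 CPM in the Rspo1 libraries, and the untreated passage 6 library had 27.7 CPM of Neat1.

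Malat1 (ENSMUSG00000092341, GRCm38 chr19:5795690-5802672, minus strand, a single exon of 6983 bases) was nearly constant in untreated cells and varied widely under Rspo1. At passages 5, 6 and 10 its level was 669, 703 and 664 CPM in untreated cells. It was 186, 646 and 309 CPM in Rspo1-negative cells and 219, 532 and 520 CPM in Rspo1-positive cells. Every untreated library lay above every Rspo1 library, and the coefficient of variation was 3.18% in the untreated group against 62.5% and 41.8% in the Rspo1-negative and Rspo1-positive groups. The log2 fold change was -0.83 (SE 0.42, adjusted p = 0.183) for Rspo1-negative and -0.68 (SE 0.42, adjusted p = 0.467) for Rspo1-positive against untreated cells by edgeR with Benjamini-Hochberg adjustment, so neither passed the threshold of 0.05. With passage as a block the first of these was called, at -1.04 (adjusted p = 0.0168, range over 17 alternatives 0.0168 to 0.702). Matched by passage, Rspo1-negative cells had 0.279, 0.919 and 0.466 times the untreated level, and Rspo1-positive cells 0.328, 0.756 and 0.783 times.

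The composition trend differed between these comparisons. The trend alone put an RNA of Malat1's GC content (42.5%) and length at -0.55 in Rspo1-negative against untreated cells, and 1057 tested genes in the same quintiles of GC and length had a median of -0.86. With the trend as an offset Malat1 was at -0.30 (SE 0.42), and with the block as well at -0.50 (SE 0.27), and was called under neither. For Rspo1-positive cells the trend was 0.09, and the value with block and offset was -0.92 (SE 0.27, adjusted p = 0.0401 by edgeR, range over 17 alternatives 0.0401 to 0.774). For Malat1 between the Rspo1 groups the log2 fold change was 0.15 (SE 0.42, adjusted p = 0.821 by edgeR), and it turned to -0.46 with the offset. Within the 6 Rspo1 libraries the ribosomal repeat share moved with Malat1: the libraries at 520, 532 and 646 CPM had shares of 10.1%, 20.9% and 16.9%, and those at 186, 219 and 309 CPM had 2.38%, 0.499% and 1.79%. The untreated libraries held 664 to 703 CPM at shares of 0.591% to 5.37%; the part of this share in the result was not tested. Without the Rspo1-negative passage 6 library, Malat1 was at -1.43 against untreated cells and was called by edgeR.

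The genes most like Malat1 over the 9 libraries were Gm37376 (Pearson r = 0.996) and Gm27694 (r = 0.969), which both lie inside it. Gm37376 is annotated on the opposite strand with all of its 453 bases inside Malat1, and it had 18.04 counts per possible read start over all libraries where Malat1 had 19.71, a ratio of 0.916. Reads of the strands can therefore not be told apart in these counts, and a read can count for both genes. Among genes that do not overlap it, chosen after the values were seen, Gcc1 (r = 0.939) and Gm20417 (r = 0.926) came next; these correlations are descriptions over libraries that share groups and passages.

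Neat1 (ENSMUSG00000092274, chr19:5824708-5845478, minus strand, a single annotated block of 20771 bases) was very low in 1 untreated library, and lay below the Rspo1-positive level in all Rspo1-negative libraries. Its level was 442, 27.7 and 431 CPM in untreated cells at passages 5, 6 and 10. In Rspo1-negative cells it was 122, 227 and 95.7 CPM, and in Rspo1-positive cells 253, 320 and 331 CPM. The groups given Rspo1 did not overlap, while the untreated libraries spanned both groups. By edgeR with Benjamini-Hochberg adjustment the log2 fold change between the Rspo1 groups was 1.02 (SE 0.71, adjusted p = 0.323, positive minus negative), and it was -1.02 (SE 0.71, adjusted p = 0.337) for Rspo1-negative against untreated cells, and 0.00 (SE 0.70, adjusted p = 0.999) for Rspo1-positive against untreated cells. None passed the threshold.

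These calls turned on the untreated library of passage 6, which lay 15.9 times below the highest library. Without it, edgeR called Neat1 in Rspo1-negative against untreated cells, at -1.55 (adjusted p = 0.00899, 17 alternatives spanning 0.00899 to 0.903). It also called Neat1 between the Rspo1 groups, at 1.02 (adjusted p = 0.0259, 17 alternatives spanning 0.0259 to 0.808). The composition trend at Neat1's GC content and at the length limit of the trend, 17713 bases, was -0.70 and 0.79 in these comparisons. With the offset over all 9 libraries Neat1 was at -0.36 (SE 0.67) and 0.31 (SE 0.67), which are extrapolations, since Neat1 is longer than that limit. The same library held the highest Malat1 level of all, and its share of mitochondrially encoded counts, 2.89%, was also the highest; their part in the result was not tested. Of 9888 genes with a mean over 10 CPM, 6 were at least 10 times lower in this library than in both other untreated libraries, against 1 and 0 genes for the passage 5 and passage 10 libraries. Apart from Neat1 and its internal segments Gm27533, Gm27505 and Gm28006, these were Firre, a nuclear RNA of the X chromosome, and Rgs11, named here after their values were seen. Firre stood at 71.3, 6.29 and 175.7 CPM and Rgs11 at 13.4, 0.936 and 23.5 CPM in the untreated libraries of passages 5, 6 and 10.

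Gm27505 (r = 0.997) and Gm28006 (r = 0.996) were the genes most like Neat1, and they count the same reads. Their counts per possible read start were 6.71 and 6.99 times that of Neat1 as a whole, so reads were unevenly spread along the annotated 20771 bases, and the short and long forms of Neat1 were not separated. Among genes that do not overlap it, chosen after the values were seen, D930048N14Rik (r = 0.975) and Airn (r = 0.953), another imprinted antisense RNA, came next.

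The paraspeckle proteins that bind Neat1 were examined as a list of 16 genes, all tested. In Rspo1-positive against Rspo1-negative cells 9 rose and 0 fell, where 14.6% of all genes were called higher and 9.78% lower, with a median log2 fold change of 0.79 beside 0.03 over all genes. Cpsf6, a polyadenylation factor, rose by 0.87 (adjusted p = 0.00589) and Sfpq, a core paraspeckle protein, by 0.78 (adjusted p = 0.00993 by edgeR). In Rspo1-negative against untreated cells 0 rose and 3 fell, where 8% of all genes were called higher and 13.9% lower, with a median of -0.53 beside -0.02. With passage as a block 9 fell, where 35.5% of all genes were called in either direction. Matr3, a nuclear matrix protein, fell by 0.93 (adjusted p = 0.0165) and Cpsf6 by 0.64 (adjusted p = 0.0211 by edgeR). The call of Matr3 was lost without the untreated passage 5 or the Rspo1-negative passage 10 library, and that of Cpsf6 without either of these or the untreated passage 10 library, and in the fit of the 6 libraries. With the composition offset these counts became 3 higher and 0 lower, and 0 and 0, where 9.19% and 8.91% of all genes were called. Sfpq stayed called at 0.75, while Cpsf6 turned to -0.13 and 0.31 and Matr3 moved to -0.03, and these were not called. In Rspo1-positive against untreated cells edgeR called 0 of the 16, where 3.07% of all genes were called higher and 2.13% lower. The block called 1, beside 13.2% of all genes.

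Other nuclear noncoding RNAs, 13 tested of a list of 18, gave 2 that rose in Rspo1-positive against Rspo1-negative cells, where 14.6% of all genes were called higher: Tug1 (0.90, adjusted p = 0.00463) and Ftx (1.47, adjusted p = 0.0398 by edgeR), an RNA of the X inactivation centre. The call of Ftx was lost when the untreated passage 5 library or any 1 of the 6 Rspo1 libraries was left out. Tug1, a long intergenic RNA, also fell by 1.15 in Rspo1-negative against untreated cells (adjusted p = 0.00159 by edgeR), from 68.0, 80.6 and 60.4 CPM to 30.6, 37.5 and 26.2 CPM. With the offset none of these calls remained, Tug1 being at -0.11 and -0.20 and Ftx at 0.82. The list's median between the Rspo1 groups was 0.90 beside 0.03 over all genes. It was -0.07 beside -0.02 in Rspo1-negative and 0.35 beside -0.01 in Rspo1-positive cells, both against untreated cells. With the offset these medians were 0.62, 0.26 and 0.27. In Rspo1-positive against untreated cells edgeR called 0 of the 13, where 5.21% of all genes were called. With the block 2 were called higher and 1 lower, beside 13.2% of all genes.

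Kcnq1ot1 (ENSMUSG00000101609, chr7:143203458-143296549, minus strand, annotated as 1 block of 93092 bases) was the only one of the 7 called between Rspo1-negative and untreated cells, where 21.9% of all tested genes were called. At passages 5, 6 and 10 it stood at 21.2, 24.8 and 30.8 CPM in untreated cells. It stood at 43.6, 48.0 and 55.9 CPM in Rspo1-negative cells and at 38.2, 34.8 and 39.9 CPM in Rspo1-positive cells. No groups overlapped: untreated was lowest, Rspo1-positive between, and Rspo1-negative highest, at every passage. Kcnq1ot1 rose by 0.94 (SE 0.16, adjusted p = 0.00360 by edgeR) in Rspo1-negative against untreated cells and stayed called in all 17 alternatives, from 0.82 to 2.06. For Rspo1-positive minus untreated cells it was 0.56 (SE 0.16, adjusted p = 0.0806 by edgeR), which passed with the block (0.57, adjusted p = 0.00956, range over 17 alternatives 0.00956 to 0.240). Rspo1-positive minus Rspo1-negative cells gave -0.38 (SE 0.16, adjusted p = 0.103 by edgeR), which also passed with the block (-0.38, adjusted p = 0.0296, range over 17 alternatives 0.000204 to 0.261).

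This rise went against the composition trend. At its GC content of 40.3% and at the length limit of the trend, 17713 bases, the trend for Rspo1-negative against untreated cells was -1.08, and with it as an offset Kcnq1ot1 was at 2.06 (SE 0.20). The offset also moved the difference between the Rspo1 groups from -0.38 to -1.53 (SE 0.20), which was called. Both offset values are extrapolations, since Kcnq1ot1 is longer than that limit. Of 99 tested genes with over 20000 exon bases, 59 were called lower in Rspo1-negative than in untreated cells and 1, Kcnq1ot1, was called higher, with a median of -0.87. Kcnq1, which overlaps Kcnq1ot1 on the opposite strand and has a GC content of 56.9%, rose by 1.33 in the same comparison. As strands cannot be told apart in these counts, its reads can count for Kcnq1ot1. Their part in this rise was not tested.

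**Figure D2:**
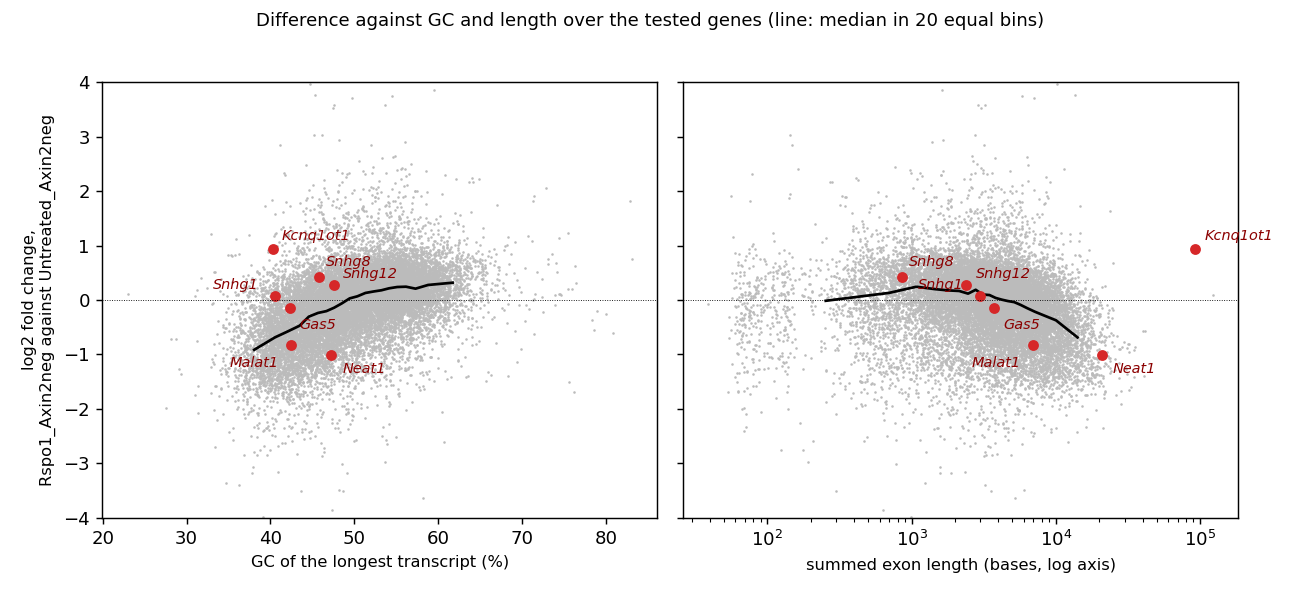
Rspo1-negative minus untreated log2 level for the tested genes (grey), against GC content of the longest transcript (left, in %) and summed exon length (right, in bases on a log axis); the black line is the median in 20 bins of equal gene number and the 7 RNAs are red. Malat1 (-0.83) lies near the median of the genes in its quintiles of GC and length (-0.86). Gas5 (-0.14) and Kcnq1ot1 (0.94) lie above the medians of theirs (-0.49 and -0.86).

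Kcnq1ot1 moved together with Kcnq1, the potassium channel gene that overlaps it on the opposite strand. The genes most like it were Pnpla7 (r = 0.98), a lysophospholipase gene, and Kcnq1 (r = 0.977). Kcnq1 itself stood at 188.5, 252 and 250 CPM in untreated cells. It stood at 502, 570 and 660 CPM in Rspo1-negative cells and at 383, 319 and 406 CPM in Rspo1-positive cells, the same order of groups as Kcnq1ot1. For every 100 counts on Kcnq1 there were 11.25, 9.86 and 12.3 counts on Kcnq1ot1 in untreated cells. There were 8.69, 8.42 and 8.47 in Rspo1-negative and 9.98, 10.9 and 9.82 in Rspo1-positive cells. They share 121 exon bases, 2.96% of the exon bases of Kcnq1. Kcnq1 had 110155 counts over all libraries and Kcnq1ot1 had 10636, so a small share of the Kcnq1 counts is a larger share of the Kcnq1ot1 counts. Over all libraries Kcnq1 had 26.44 counts per possible read start and Kcnq1ot1 had 0.114. The strand setting of the counting is not given in the sources used here. Kcnq1ot1 and Kcnq1 RNA, spliced or unspliced, can therefore not be told apart in these counts. How much of the Kcnq1ot1 level came from Kcnq1 reads was not tested. Unc5cl (r = 0.957) came next among genes that do not overlap it.

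**Figure D3:**
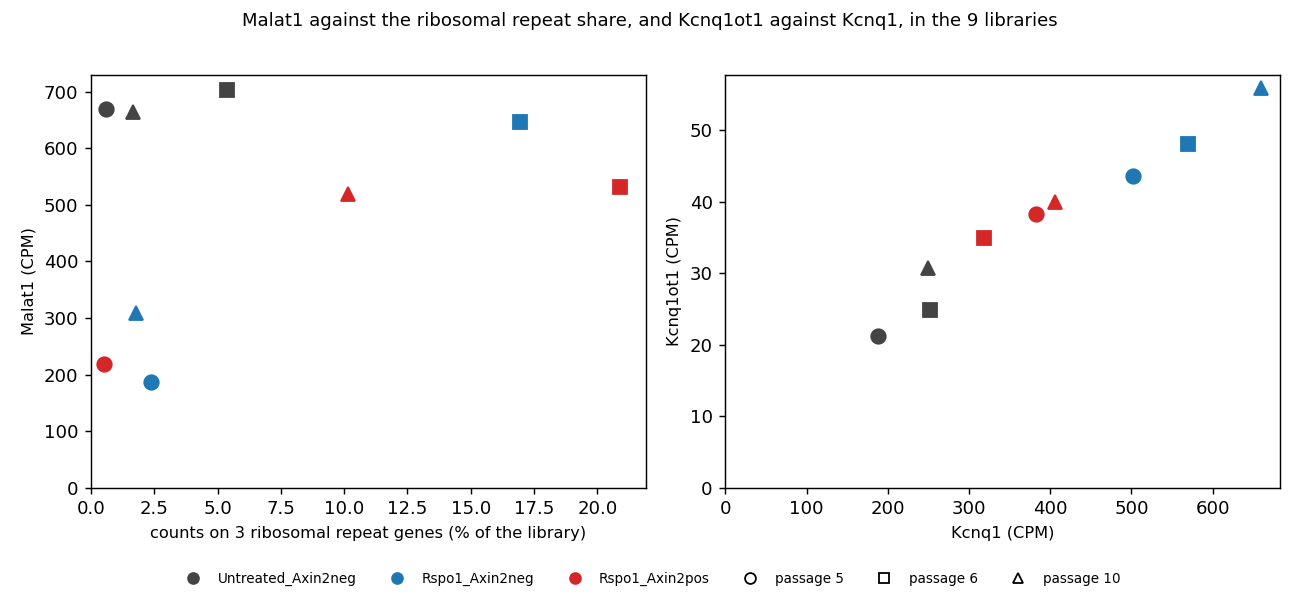
Left, Malat1 (CPM) against the share of a library's counts on the 3 ribosomal repeat genes (%); right, Kcnq1ot1 against Kcnq1 (both CPM); each point is 1 of the 9 libraries, colour gives the group and shape the passage. The Rspo1 libraries with 520 CPM of Malat1 or more had repeat shares of 10.1% or more, and Kcnq1ot1 and Kcnq1 were lowest in the untreated libraries and highest in the Rspo1-negative ones.

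H19 (ENSMUSG00000000031, chr7:142575529-142578143, minus strand) had 2 counts in all, 1 in the untreated library of passage 5 and 1 in the Rspo1-negative library of passage 10. Nothing was counted in the Rspo1-positive libraries. A floor of 3 counts over the 9 libraries corresponds to 0.0104 CPM and covers counting error only. No difference between groups could be detected at this depth. The miRNA gene inside H19, Mir675, was not analysed here.

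Genes around H19 and Kcnq1ot1, 12 tested of a list of 19 that holds imprinted genes and their neighbours, rose in Rspo1-negative against untreated cells in 5 cases and fell in 0, where 8% of all genes were called higher, with a median of 0.62 beside -0.02 over all genes. Ascl2, a Wnt-responsive transcription factor gene of this imprinted domain, rose by 3.85 (SE 0.27, adjusted p = 0.000453 by edgeR), and Kcnq1 by 1.33 (SE 0.17, adjusted p = 0.00135). Ascl2 had 0.400, 0.334 and 0.345 CPM in untreated cells, 4.82, 5.39 and 5.55 CPM in Rspo1-negative cells and 4.88, 3.47 and 4.84 CPM in Rspo1-positive cells, with no overlap between untreated and Rspo1 libraries. In Rspo1-positive against untreated cells 2 rose and 0 fell, where 3.07% of all genes were called higher and 2.13% lower. Those that rose were Ascl2 (3.60, adjusted p = 0.000302) and Kcnq1 (0.68, adjusted p = 0.0467 by edgeR). The call of Kcnq1 was lost when any of the libraries but the Rspo1-negative one of passage 6 was left out. With the block the counts were 3 and 2, beside 13.2% of all genes. From Rspo1-negative to Rspo1-positive cells 4 fell, where 9.78% of all genes were called lower. With the block 7 fell, where 38.9% of all genes were called in either direction. Cdkn1c, a cell cycle inhibitor silenced by Kcnq1ot1 on the paternal allele, fell by 1.34 (adjusted p = 0.0113 by edgeR) and Kcnq1 fell by 0.64 (adjusted p = 0.0222 by edgeR). The latter call was lost without the Rspo1-positive library of passage 5 or 6 or the Rspo1-negative one of passage 10. With the offset Cdkn1c was at -0.99 and Kcnq1 at -0.41, neither called, while Kcnq1 stayed called at 1.08 against untreated cells. With the offset the counts were 2 higher and 0 lower, 2 and 0, and 0 and 0 in these comparisons. The offset fit called 8.91%, 6% and 9.19% of all genes in the same order.

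The snoRNA hosts Gas5, Snhg1 and Snhg12 were highest in Rspo1-positive cells on average, and Snhg8 in Rspo1-negative cells. Gas5 (ENSMUSG00000053332, chr1:161034422-161038539, plus strand), which carries 9 annotated snoRNA loci and is known to accumulate in growth-arrested cells, stood at 140, 116 and 151 CPM in untreated cells at passages 5, 6 and 10. It stood at 115, 116 and 138 CPM in Rspo1-negative and at 151, 152 and 201 CPM in Rspo1-positive cells. The Rspo1-positive libraries lay above all Rspo1-negative ones, and overlapped the untreated range at its upper end. The log2 fold change between the Rspo1 groups was 0.45 (SE 0.16, adjusted p = 0.0628 by edgeR) and passed with the block (0.44, adjusted p = 0.0125, range over 17 alternatives 0.0125 to 0.894). The composition trend at Gas5 was 0.48, and with the offset the value turned to -0.05 (SE 0.17). Against untreated cells Gas5 was 0.31 (SE 0.16, adjusted p = 0.369) in Rspo1-positive and -0.14 (SE 0.16, adjusted p = 0.567 by edgeR) in Rspo1-negative cells. The trend at Gas5 in the latter was -0.42, and with the offset the value turned to 0.28 (SE 0.17), not called.

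Snhg1 (ENSMUSG00000108414, chr19:8723475-8726443, plus strand), host of 8 annotated snoRNA loci, was the only one of the 7 called between the Rspo1 groups, where 24.3% of all tested genes were called. It stood at 28.5, 18.3 and 29.0 CPM in untreated and 28.1, 26.1 and 25.0 CPM in Rspo1-negative cells. In Rspo1-positive cells it stood at 38.9, 37.5 and 49.2 CPM, above every other library. Snhg1 rose by 0.66 from the negative to the positive gate (SE 0.19, adjusted p = 0.0286 by edgeR, range over 17 alternatives 0.00735 to 0.773), and the call was lost when any 1 of the 6 Rspo1 libraries was left out. The composition trend at Snhg1 was 0.56, and with the offset 0.10 (SE 0.18) remained, which was not called. Against untreated cells, where the trend at Snhg1 was 0.03, Rspo1-positive cells had 0.73 (SE 0.19, adjusted p = 0.0526 by edgeR) without and 0.69 (SE 0.18) with the offset, and the difference passed with the block (0.74, adjusted p = 0.00825, range over 17 alternatives 0.00528 to 0.186). Matched by passage, the Rspo1-positive level was 1.36, 2.05 and 1.70 times the untreated one. Rspo1-negative and untreated cells differed by 0.06 (SE 0.19, adjusted p = 0.840 by edgeR), and with block and offset by 0.61 (SE 0.14, adjusted p = 0.0109, range over 17 alternatives 0.0109 to 0.963).

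Snhg8 (ENSMUSG00000104960, chr3:123507552-123508404, minus strand), host of the single snoRNA Snora24, stood at 16.4, 12.6 and 13.2 CPM in untreated cells. It stood at 21.2, 15.6 and 19.8 CPM in Rspo1-negative and 14.5, 12.4 and 18.2 CPM in Rspo1-positive cells, and the groups overlapped. Its log2 fold change was 0.42 (SE 0.20, adjusted p = 0.152) for Rspo1-negative against untreated cells and -0.33 (SE 0.20, adjusted p = 0.253 by edgeR) for Rspo1-positive against Rspo1-negative cells. These became, with block and offset, 0.56 and -0.50 (both SE 0.15) and were called (adjusted p = 0.0187 and 0.0283 by edgeR, ranges over 17 alternatives 0.0187 to 0.356 and 0.0283 to 0.558). Snhg12 (ENSMUSG00000086290, chr4:132308623-132311024, plus strand), host of 4 annotated snoRNA loci, stood at 15.6, 10.2 and 18.3 CPM in untreated, 16.8, 15.1 and 21.3 CPM in Rspo1-negative and 17.4, 17.5 and 25.7 CPM in Rspo1-positive cells. The ranges overlapped, and its log2 fold changes were not called: 0.46 in Rspo1-positive and 0.27 in Rspo1-negative cells, both against untreated cells, and 0.19 between the Rspo1 groups. With the offset they were 0.41, 0.27 and 0.14, not called either.

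Over the 9 libraries Gas5, Snhg1 and Snhg12 varied together (Pearson r = 0.837, 0.763 and 0.769 for the 3 pairs), whereas Snhg8 had r = -0.015, 0.111 and 0.495 with them; these values are descriptions over libraries that share groups. The genes most like Gas5 were Trmt10a, a tRNA methyltransferase (r = 0.975), and Dcun1d4 (r = 0.974). Those most like Snhg1 were Snhg5, another snoRNA host (r = 0.977), and Rnaseh1, which cuts RNA in RNA-DNA hybrids (r = 0.952). For Snhg8 they were Chchd7 (r = 0.937) and Gm17586 (r = 0.932), and for Snhg12 Tbrg4 (r = 0.96) and Fastkd3 (r = 0.95), both of the FASTK family of mitochondrial RNA regulators. Each was chosen from 11660 genes with a mean log2 CPM above 2.

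The snoRNA genes inside the hosts all lie within annotated exon blocks, since some host transcripts retain those introns, so their counts can come from snoRNAs or from unspliced host RNA and are given as counts only. Snord80 in Gas5 and Snora16a in Snhg12 are each annotated under 2 identifiers at 1 place and were summed once. The Gas5 loci had 7.27, 2.85 and 8.52 counts per 100 host counts in untreated cells at passages 5, 6 and 10. They had 5.39, 4.16 and 3.47 in Rspo1-negative and 7.81, 8.41 and 9.82 in Rspo1-positive cells. The Rspo1-positive libraries lay above all Rspo1-negative ones. For Snhg1 the values were 14.05, 7.495 and 15.2 in untreated, 8.71, 11.3 and 14.41 in Rspo1-negative and 14.45, 18.99 and 20.8 in Rspo1-positive cells. There the Rspo1 groups touched without overlap. The untreated library of passage 6 was the lowest of the 9 for Gas5, Snhg1 and Snhg8, the last with 3 snoRNA counts. For Snhg8 the Rspo1-positive libraries, at 2.38 to 5.07, lay above the Rspo1-negative ones, at 1.38 to 2.12, on at most 33 snoRNA counts a library, and both overlapped the untreated range. Snhg12 ranged from 12.95 to 21.6, with overlap between all groups.

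**Figure D4:**
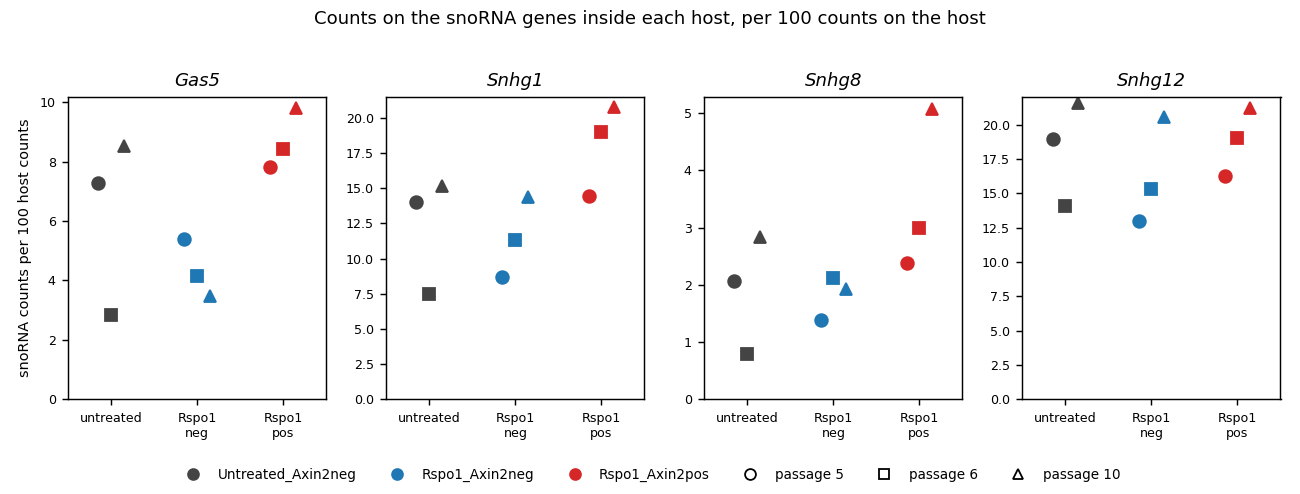
Summed counts on the snoRNA genes inside Gas5, Snhg1, Snhg8 and Snhg12 per 100 counts on the host, by group; each point is 1 library and its shape gives the passage. For Gas5 the Rspo1-positive libraries lie at 7.81 to 9.82 and the Rspo1-negative ones at 3.47 to 5.39.

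Other noncoding snoRNA hosts were a list of 18, with 15 tested. In Rspo1-negative against untreated cells 2 of the 15 were called beside 21.9% of all genes, with a list median of 0.05 beside -0.02 over all genes. Snhg18 rose by 1.35 (SE 0.17, adjusted p = 0.00130) and Snhg14 fell by 1.75 (SE 0.27, adjusted p = 0.00218 by edgeR). With the block 2 rose and 3 fell, where 35.5% of all genes were called. Snhg18 stood at 15.3, 16.8 and 14.3 CPM in untreated, 41.6, 33.8 and 42.7 CPM in Rspo1-negative and 21.9, 19.8 and 28.4 CPM in Rspo1-positive cells, with no overlap between groups. Snhg18 stayed at 1.32 with the offset, while Snhg14, the very long host of the Prader-Willi domain, moved to -0.58 and lost its call. The offset values of Snhg14 are extrapolations, since its 26093 bases and GC content of 31% lie outside the limits of the trend. From Rspo1-negative to Rspo1-positive cells 2 rose and 1 fell: Snhg14 rose by 1.31 (adjusted p = 0.00753) and Snhg18 fell by 0.75 (adjusted p = 0.0115 by edgeR), 3 of 15 beside 24.3% of all genes. With the offset Snhg14 was at 0.19 and not called, and Snhg18 was at -0.76 and called. The counts were then 0 and 1, beside 9.19% of all genes. The call of Snhg18 was lost without the Rspo1-positive passage 5 library. When Rspo1-positive and untreated cells were compared, edgeR called 0 of the 15, where 5.21% of all genes were called. With the block 2 were called higher and 2 lower, beside 13.2% of all genes.

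Protein-coding hosts outside the ribosome, 13 tested, had 3 higher and 2 lower in Rspo1-negative against untreated cells. Of all genes 8% were called higher and 13.9% lower. With the block the counts were 5 and 2 beside 35.5% of all genes, and with the offset 2 and 0 beside 8.91%. The calls of the main fit were led by Rack1 (0.74, adjusted p = 0.0147), a ribosome-associated scaffold, and the translation factor gene Eef1b2 (0.65, adjusted p = 0.0282 by edgeR). With the offset these genes were at 0.79 and 0.74 and called. The call of Rack1 was lost without the Rspo1-negative library of passage 5 or 10, and that of Eef1b2 without either of these, without the untreated library of passage 5 or 10, and in the fit of the 6 libraries. Set against Rspo1-negative cells, Rspo1-positive cells had 2 that were higher and 4 lower, where 14.6% of all genes were called higher and 9.78% lower. These calls were led by the nucleolin gene Ncl (1.23, adjusted p = 0.00683) and Rack1 (-0.84, adjusted p = 0.00879 by edgeR). With the offset the counts were 1 and 2, beside 9.19% of all genes. With the offset alone Ncl was at 0.46 and not called, and Rack1 at -0.96 and called. Rcc1, host of snoRNAs and next to Snhg3, was the only one of the 13 called in Rspo1-positive against untreated cells (0.82, adjusted p = 0.00688 by edgeR), where 5.21% of all genes were called. It stood at 34.5, 43.1 and 40.9 CPM against 22.4, 22.4 and 22.2 CPM in untreated cells. The block called 2 of the 13, beside 13.2% of all genes.

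Proteins of the snoRNA particles, 14 tested of 15, included 1 that rose in Rspo1-positive against untreated cells, where 3.07% of all genes were called higher. This was Gar1 of the box H/ACA particle (0.74, SE 0.15, adjusted p = 0.0189 by edgeR). Gar1 stood at 26.7, 32.9 and 28.8 CPM in Rspo1-positive and 17.9, 16.7 and 18.4 CPM in untreated cells, without overlap. The call was lost without the untreated library of passage 5 or 6 or the Rspo1-positive one of passage 6 or 10, and stayed with the offset (0.76). With the block 4 of the 14 rose, where 13.2% of all genes were called in either direction. Against Rspo1-negative cells 5 rose and 0 fell, where 14.6% of all genes were called higher. The 5 were led by Nop58 of the box C/D particle (1.17, adjusted p = 0.00237) and the pseudouridine synthase Dkc1 (0.90, adjusted p = 0.00279 by edgeR). With the offset the counts were 4 and 0, beside 9.19% of all genes. Nop58 was then at 0.27 and not called, and Dkc1 at 0.50 and called. In Rspo1-negative against untreated cells 2 rose and 1 fell, where 8% of all genes were called higher and 13.9% lower. Rrp9 was at 0.70 (adjusted p = 0.00673) and Ruvbl2 at 0.67 (adjusted p = 0.0111 by edgeR), and with the offset alone they were at 0.36 and 0.36 and not called. With the block the counts were 5 and 2 beside 35.5% of all genes, and with the offset 1 and 0 beside 8.91%.

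Nonsense-mediated decay factors, 16 tested, had 1 higher (3 with the block) and 4 lower in Rspo1-negative against untreated cells and 4 higher and 1 lower between the Rspo1 groups. The shares of all genes in the main fit were 8% and 13.9%, and 14.6% and 9.78%. In Rspo1-negative against untreated cells the block called 35.5% of all genes. With the offset the counts were 0 and 1, and 2 and 0, beside 8.91% and 9.19% of all genes. Upf2 fell by 1.45 (adjusted p = 0.00217) and the kinase gene Smg1 by 1.31 (adjusted p = 0.0122 by edgeR), and in Rspo1-positive against Rspo1-negative cells Upf2 rose by 1.63 (adjusted p = 0.00193) and Upf3b by 1.59 (adjusted p = 0.00399 by edgeR). Upf2 and Upf3b stayed called with the offset, Upf2 at -1.06 and 1.16 and Upf3b at 1.15, and Smg1 moved to -0.48, not called. With 23984 bases Smg1 lies beyond the length limit of the trend, so its offset value is an extrapolation. The call of Smg1 was also lost without the Rspo1-negative library of passage 5 or 10. Upf2 stood at 36.8, 25.4 and 38.9 CPM in untreated, 13.0, 15.2 and 8.85 CPM in Rspo1-negative and 38.9, 34.8 and 41.1 CPM in Rspo1-positive cells. In Rspo1-positive against untreated cells edgeR called 0 of these 16, also with the block, beside 5.21% and 13.2% of all genes.

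Counted over the 7 tested RNAs, few differences passed the threshold. In Rspo1-positive against untreated cells edgeR called 0 of 7 where 5.21% of all genes were called. At an unadjusted p under 0.05 there were 2 (17.5% of all genes), and DESeq2 called 2, Kcnq1ot1 and Snhg1 (8.85% of all genes). The block called the same 2, where 13.2% of all genes were called. Between the Rspo1 groups 1 of 7 was called beside 24.3% of all genes, 3 with the block beside 38.9%, 2 by DESeq2 beside 30.2%, and 3 at an unadjusted p under 0.05 beside 37.7%. In Rspo1-negative against untreated cells 1 of 7 was called beside 21.9%, 2 with the block beside 35.5%, 1 by DESeq2 beside 27.9%, and 1 unadjusted beside 36.2%. With the offset 0, 1 and 1 of 7 were called beside 6%, 9.19% and 8.91%. With block and offset these counts were 3, 2 and 3 beside 16.1%, 24.6% and 22.2%. The compared groups did not overlap in 3, 4 and 2 of the 7, beside 23.2%, 45.2% and 36.3% of all genes. Median log2 fold changes were 0.31, 0.19 and 0.06 beside -0.01, 0.03 and -0.02 over all genes. The comparisons share groups pairwise and are not independent of each other.

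**Figure D5:**
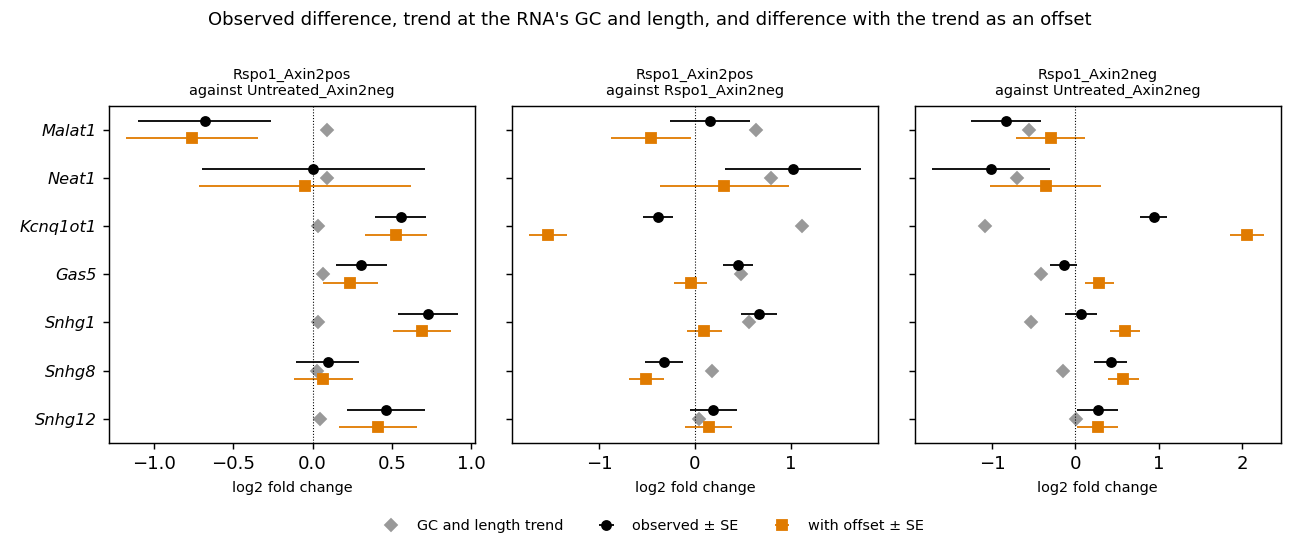
Log2 fold change of the 7 RNAs in the 3 comparisons: as observed (black, with SE), the composition trend at the RNA's GC content and length (grey diamonds) and with the trend as an offset (orange, with SE); each panel has its own horizontal scale. For Neat1 and Kcnq1ot1 the trend was taken at its length limit of 17713 bases. In Rspo1-negative against untreated cells Kcnq1ot1 was observed at 0.94 where the trend was -1.08, and Malat1 at -0.83 where the trend was -0.55.

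Passage was tested jointly over passages 5, 6 and 10 with group as a term. Each passage is also 1 replicate number, so passage and other differences between replicates cannot be told apart. No passage had more than 1 library of a group, so the spread between cultures of the same passage was not measured. Of the 7 RNAs 1, Snhg12, was called (adjusted p = 0.0417 by edgeR, range over 14 alternatives 0.0118 to 0.179), where 12% of all genes were called. Its mean was 16.6 ± 0.913, 14.3 ± 3.73 and 21.8 ± 3.76 CPM at passages 5, 6 and 10 (SD over 3 libraries, 1 from each group). Passage 10 was highest in every group. The call was lost when any of 8 of the 9 libraries was left out. Malat1 was higher at passage 6 than at passage 5 by 1.05 and at passage 10 by 0.62 (adjusted p = 0.0788 by edgeR), with means of 358, 627 and 498 CPM. In the untreated group Malat1 stayed between 664 and 703 CPM over the passages. Whether the groups differ in their passage difference was not tested.

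The authors' deposited tables of their own comparisons list 15807 genes, among them 6 of the 8 RNAs; Kcnq1ot1 and H19 are not listed in them. In the authors' deposited table for Rspo1-negative against untreated cells, Malat1 had a log2 fold change of -1.01 with an adjusted p-value of 0.000437, where 4269 of the 15807 genes were under 0.05. For Rspo1-positive against untreated cells the authors' deposited table gave -0.78 for Malat1 with an adjusted p-value of 0.0027 and 0.75 for Snhg1 with 0.00021, where 2190 genes were under 0.05. For the Rspo1 groups against each other the authors' deposited table gave 1.09 for Neat1 with an adjusted p-value of 5.47e-08, 0.63 for Snhg1 with 0.000179 and 0.42 for Gas5 with 0.00148, where 6964 genes were under 0.05. All other values listed for these 6 RNAs had adjusted p-values above 0.05. Among them was Neat1 against untreated cells, at -0.67 in Rspo1-negative and 0.58 in Rspo1-positive cells. The design behind these values is not given in the sources used here.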

How the data were processed

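Per the file headers, the authors deposited raw counts per gene and FPKM values for each of the 9 libraries; the deposited FPKM divide by the length of the longest annotated transcript and were used only to compare levels between genes. The authors' deposited comparison tables hold a mean normalised signal, log2 fold changes, a test score and p-values, and are quoted only where named. Per the submitters' processing notes the tools were Trimmomatic 0.35, FastQC 0.11.2, STAR 2.5.1b, featureCounts and DESeq2, with build GRCm38; the strand setting and annotation release are not given in the sources used here. Libraries were read as 75 bp single-end reads from 100 ng of total RNA, per the labels' protocols, and the RNA selection is not given in the sources used here. In the headers the third library of each group carries the number 4 and was matched by its file.

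Raw counts were analysed with R 4.3.3 and edgeR 4.0.16: filterByExpr on groups (minimum count 10, minimum total count 15), TMM scaling, 1 quasi-likelihood fit of group over all 9 libraries, and Benjamini-Hochberg adjustment over 17011 genes with a threshold of 0.05. Passage was tested with group as a term. The composition offset is a smooth trend per library on GC content and log2 exon length (mgcv 1.9.3, GENCODE M21), limited to 84 to 17713 bases and 36.5% to 64.18% GC. Named genes are the 8 RNAs, up to 2 called genes with the smallest adjusted p per list and comparison, and the 2 genes most correlated with each RNA. The 8 RNAs and the lists were chosen with earlier results of these data known. Alternatives were other scalings, no filter, DESeq2 1.42.0, a passage block, the offset, 6 libraries only, and leaving out each library. The fit was tested on simulated data.

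Same-numbered libraries share a passage, per the labels. Their deviations from group means correlated at 0.123 to 0.573 in 9 pairs, against -0.476 to 0.0826 in 18 pairs of different passages. The numbers therefore pair the libraries, and the replicate block was used as an alternative. The main fit of group has no passage term, so the spread behind its p-values includes differences between passages. Total counts of 23423979 to 37351448 did not allow H19 to be compared. Overlapping snoRNA annotations of 1 host were summed once.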

Additional observations from a re-analysis of the deposited data

How the results depend on the processing

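Of 357 values of the 7 RNAs under alternatives, 306 kept direction and side of the threshold, 8 lost the call, 26 gained it and 17 changed sign. Of 527 values of named list genes, 462 kept both, 59 lost the call and 6 changed sign. The number of the 7 RNAs called in Rspo1-positive against untreated cells was 0, and 1 with upper-quartile scaling, 2 without the filter, 2 with DESeq2, 2 with the replicate block, and 3 with block and offset. Between the Rspo1 groups it was 1, and 2 with DESeq2, 3 with the replicate block, 2 with block and offset, and 2 in the fit of the 6 libraries. Comparing Rspo1-negative with untreated cells, it was 1, and 2 without the filter, 2 with the replicate block, and 3 with block and offset. For passage it was 1, and 2 without the filter. Leaving out each library gave 0 to 2, 0 to 2, 1 to 2 and 0 to 2. Signs turned with the GC and length offset for Neat1 in Rspo1-positive against untreated cells (-0.050) and, offset alone and with the replicate block, for Malat1 (-0.46, -0.42), Gas5 (-0.047, -0.040), Tug1 (-0.11, -0.10) and Cpsf6 (-0.13, -0.12) between the Rspo1 groups and Gas5 (0.28, 0.28) and Cpsf6 (0.31, 0.31) in Rspo1-negative against untreated cells. With a library left out, Neat1 (-0.53 to 0.40) and Snhg8 (-0.066 to 0.22) in Rspo1-positive against untreated cells, Malat1 (-0.18 to 0.77) and Snhg12 (-0.022 to 0.29) between the Rspo1 groups, and Snhg1 (-0.12 to 0.17) in Rspo1-negative against untreated cells took both signs; none of these was called. The causes were not tested.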
